A study of Mus musculus with 12 samples.

Results

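The mitochondrial ribosomal protein genes were followed through 12 retinal RNA-seq libraries. They were taken as every gene whose symbol is Mrpl or Mrps, a number and at most 1 further letter, which gave 78 of the 25124 genes listed, the same 78 in both expression tables. In all groups the tissue was whole retina of wild-type (WT) mice, and each treated mouse had intraocular pressure (IOP) raised in 1 eye only, with the other eye left untreated. The single table held 8 libraries collected 2 days after a single elevation to 30 mmHg for 1 h: untreated contralateral eyes and pressure-treated eyes of 3-month-old mice (3mo control, 3mo IOP) and of 18-month-old mice (18mo control, 18mo IOP), 2 libraries of each. The repeat table held 2 libraries of eyes given 4 biweekly elevations of the same kind (4xIOP) and 2 of their contralateral untreated eyes (4xIOP control), from mice aged 3 months at the first elevation and collected 2 days after the fourth. The control eyes came from animals whose other eye was treated, and no retina of an animal without a treated eye entered the comparisons. The labels do not say which libraries share an animal or whether retinas were pooled, so p-values measure the spread between these libraries only.

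Mitochondria carry ribosomes of their own, which translate the few proteins encoded by mitochondrial DNA, all of them parts of the respiratory chain and ATP synthase. The ribosomal RNAs come from the mitochondrial genome, whereas every protein of the large subunit (Mrpl genes) and the small subunit (Mrps genes) is encoded in the nucleus, made in the cytosol and imported. Some of these proteins have a bacterial counterpart and others exist only in mitochondria. Photoreceptors are among the most energy-demanding cells of the body, and their inner segments are packed with mitochondria.

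Of the 78 members, 51 were assigned to the large subunit and 26 to the small one. The remaining symbol, Mrps36, is now known to belong to the alpha-ketoglutarate dehydrogenase complex and was kept because its symbol meets the rule. Mrps18a and Mrps30 carry small-subunit symbols but sit in the large subunit. The members have short transcripts: the listed isoforms ran from 405 bases (Mrpl52) to 6707 bases (Mrpl17) with a median of 1040, against a median of 2878.5 for the 12824 protein-coding genes tested. Their coding sequences had a median of 582 bases against 1389. Both tables listed the same transcript for 75 of the 78. Mrpl21, Mrpl53, Mrps23 and Mrps6 overlap another gene on the same strand, so part of their reads may belong to that gene.

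Depth lay between 39766231 and 59455041 tags a library, recovered from the FPKM values (fragments scaled to the length of the listed transcript and to the tags of the library), and 3 tags on a transcript of 1000 bases equal at most 0.0754 FPKM. Protein-coding genes with transcripts under 1000 bases had a median FPKM 3.03 and 9.12 times that of genes with 4000 bases or more in 3mo control eyes, and 7.04 and 5.47 times in 3mo IOP eyes. This ratio was between 1.52 and 1.89 in the 4 libraries of 18-month-old mice and between 1.97 and 2.91 in the repeat table. Of the young single-table libraries 3 thus stood well above all others, 3mo control replicate 2 most of all, while 3mo control replicate 1 was close to the highest library of the repeat table. Age comparisons are therefore also given with each library's trend in transcript length removed. The libraries held retina by their rod markers: the 4 of them together stood at between 8714 and 15522 FPKM in the single table and between 2768 and 7976 in the repeat table.

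Every member was detected, and all 78 passed the minimum of a mean of 0.5 FPKM in both tables. Over the 8 libraries of the single table the mean per gene had a median of 19.8 FPKM. Mrps21, a small-subunit protein with a bacterial counterpart, was highest at a mean of 109 FPKM, followed by the mitochondria-specific large-subunit gene Mrpl54 at 71.8 and by Mrpl20 at 70.4. At the other end stood Mrpl23 at 1.58 FPKM, Mrpl19 at 2.83 and Mrpl17 at 3.46. Members therefore differed widely in level per length. FPKM divides by the listed length, and Mrpl17 and Mrpl19, at 6707 and 4993 bases, are among the 3 longest members. Mrps21 held the highest value of the members in each of those 8 libraries, from 42.7 to 248 FPKM. The order below it was not fixed. Mrpl20 stood above Mrpl54 in 3mo control replicate 2 (183 and 139 FPKM) and below it in 18mo control replicate 1 (20.9 and 36.3).

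By library, the median member stood at 17.7 and 34.1 FPKM in 3mo control eyes and at 30.5 and 27.9 in 3mo IOP eyes. In 18mo control eyes it stood at 12.4 and 12.3, and in 18mo IOP eyes at 13.8 and 14.7. All 4 medians of old eyes lay below all 4 of young eyes, and within each age the pressure-treated eyes overlapped the untreated ones only among the young. The median over all tested genes moved far less, between 5.28 and 7.21 FPKM in the same libraries. In the repeat table the median member was at 10.2 and 9.27 FPKM in 4xIOP control eyes and at 9.37 and 13.9 in 4xIOP eyes. The median over all tested genes there was 5.01 and 4.95 in 4xIOP control and 5.17 and 5.94 in 4xIOP eyes. The members' medians in 4xIOP control eyes, of young mice, thus lay below those of all old eyes in the single table. FPKM is scaled to all tags of a library, of which 44.2% to 53.7% lay on listed exons here and 66.0% to 71.5% in the single table. Levels were not tested between the tables.

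**Figure D1:**
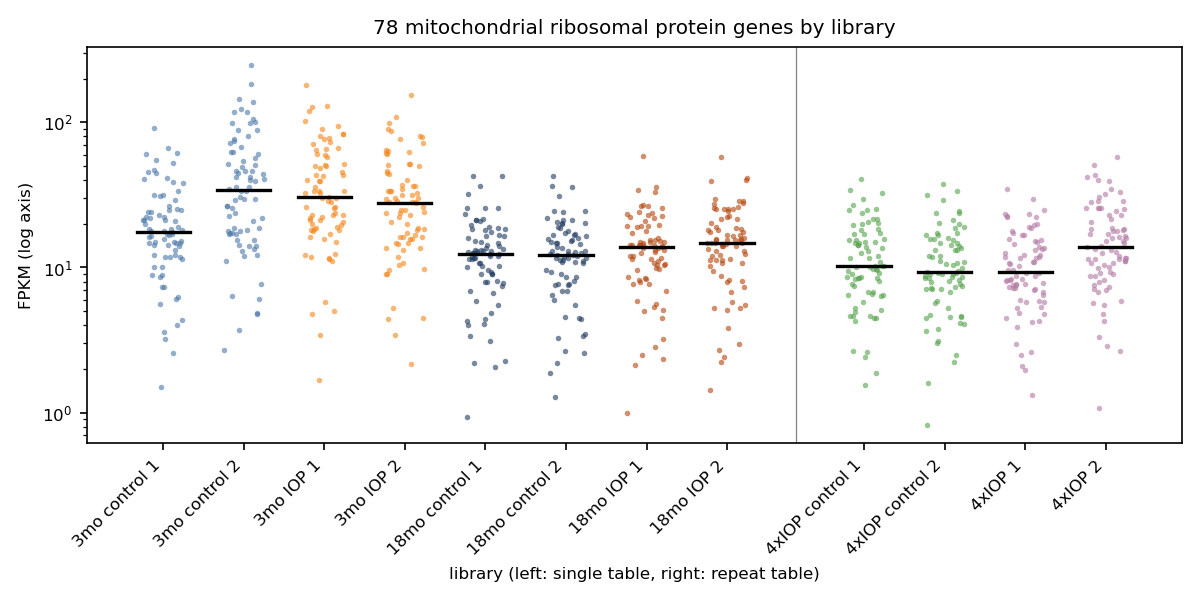
FPKM of the 78 members (points, log axis) in each of the 12 libraries, with the median of the library as a black line and the 2 tables separated by a grey line. The medians of the 4 libraries of 18-month-old mice lie between 12.3 and 14.7 FPKM, below the 17.7 to 34.1 of the 4 young libraries of the single table. Those of the repeat table lie between 9.27 and 13.9.

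Untreated eyes were compared between ages to ask how the retina of an untreated eye differs with age. In 18mo control eyes 44 of the 78 members were lower than in 3mo control eyes and 0 were higher, with p adjusted by Benjamini-Hochberg over all tested genes (limma) no larger than 0.05 and a change of at least 1 on the log2(FPKM + 0.5) scale, the rule for a call throughout. Over all 13731 genes tested, 11.6% were called lower and 11.6% higher. The median log2 fold change was -1.09 over the members and 0.16 over all tested genes. For 66 members both old libraries were below both young ones, which holds for 32.8% of all tested genes, and the adjusted p alone was passed by 52 members, all lower, against 19.2% lower and 26.7% higher of all tested genes. In whole retina, fewer cells of a type and less RNA per cell cannot be told apart.

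Mrpl20, which encodes a large-subunit protein with a bacterial counterpart (NM_025570, chr4:155802878-155808831, mm10), fell most. Its FPKM was 55.2 and 183 in 3mo control eyes and 20.9 and 21.1 in 18mo control eyes, a log2 fold change of -2.23 ± 0.46 (SE), adjusted p = 0.00897. The 2 old libraries were nearly equal, the 2 young ones lay far apart, and the groups did not overlap. Mrps33, a small-subunit protein with no bacterial counterpart (NM_010270, chr6:39801807-39810936), had 16.2 and 46.4 FPKM in young and 5.53 and 5.49 in old untreated eyes (log2 fold change -2.22 ± 0.40 (SE), adjusted p = 0.00682). Mrpl30, again with a bacterial counterpart, had 52.5 and 145 FPKM against 18.6 and 20.2 (-2.14 ± 0.40 (SE), adjusted p = 0.0073). In all 3 genes the higher young value was that of 3mo control replicate 2.

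The genes with the shortest transcripts were among those called. Mrpl33, with a listed transcript of 460 bases, had 31.6 and 99.6 FPKM in 3mo control and 13 and 15.1 in 18mo control eyes (-1.97 ± 0.45 (SE), adjusted p = 0.0117). Mrpl52, the shortest at 405 bases and specific to mitochondria, had 41.6 and 117 against 18.3 and 17.4 FPKM (-1.94 ± 0.43 (SE), adjusted p = 0.0106). Mrps21, of 478 bases, had 90.8 and 248 against 42.9 and 42.7 FPKM (-1.80 ± 0.40 (SE), adjusted p = 0.0108). All 3 shortest members therefore were called, each at least 3.48-fold lower in old eyes on the scale used.

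A smaller number of members did not show this difference. Mrpl38, of the mitochondria-specific part of the large subunit, had the highest log2 fold change, 0.30 ± 0.21 (SE), adjusted p = 0.275, with 12.1 and 15.4 FPKM in 3mo control and 16.8 and 17.1 in 18mo control eyes. Mrps34, a small-subunit gene mutated in human mitochondrial disease, had 10.1 and 17.1 against 18.5 and 13.6 FPKM (0.25 ± 0.30 (SE), adjusted p = 0.504), and the groups overlapped. Mrps26 (0.18), Mrpl4 (0.016) and Mrps2 (0.0026) were the other members whose log2 fold change was not below 0, and none of these 5 passed the adjusted p in the comparison of untreated eyes.

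Of 16 members singled out for what is known of them, 9 were called lower in 18mo control eyes, against 11.6% of all tested genes. Mrpl12, whose protein forms part of the ribosomal stalk and also binds the mitochondrial RNA polymerase, had 24.8 and 74.6 FPKM in young and 13.4 and 16.4 in old untreated eyes (-1.51 ± 0.43 (SE), adjusted p = 0.0242). Mrps12, which belongs to the decoding centre, was at 20.8 and 42 against 14.7 and 13.1 FPKM (-1.07 ± 0.31 (SE), adjusted p = 0.0251). Both were lower without overlap. Of the disease genes of this group, Mrpl44 (-1.02), Mrps16 (-1.27) and Mrps22 (-1.19) were called lower, whereas Mrpl3 (-0.20) and Mrps7 (-0.39) did not pass the adjusted p. Mrps22 varied less within groups, at 21.2 and 29.7 FPKM in young and 10.7 and 10.7 in old eyes, adjusted p = 0.00569. Mrpl41, tied to apoptosis besides its ribosomal role, fell by 1.61 on the log2 scale, while Mrps30, also studied in apoptosis, had a log2 fold change of -0.71 ± 0.28 (SE), adjusted p = 0.0711. Mrpl40 (-1.09) was called lower, and Mrpl45, which holds the ribosome to the inner membrane, passed the adjusted p at a smaller difference (-0.67 ± 0.18 (SE), adjusted p = 0.0213). Mrps27, an RNA-binding protein of the small subunit, had -0.51 ± 0.21 (SE), adjusted p = 0.081. With each library's trend in transcript length removed, 1 of the 16 was called lower (Mrpl41) and 1 higher (Mrps34), against 9.02% and 7.34% of all tested genes.

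The 3 homologues of a single bacterial small-subunit protein parted. Mrps18c fell from 33.4 and 80.7 FPKM to 13.2 and 14.5 (-1.87 ± 0.35 (SE), adjusted p = 0.0073), and Mrps18b from 6.25 and 13.4 to 4.87 and 3.38 (-1.09 ± 0.34 (SE), adjusted p = 0.0324). Mrps18a, the homologue placed in the large subunit, was at 19 and 39.1 against 21.7 and 21.1 FPKM (-0.35 ± 0.33 (SE), adjusted p = 0.408). Differences between these 3 genes were not tested, and their listed transcripts differ in length (494, 956 and 856 bases for Mrps18c, Mrps18b and Mrps18a).

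Calls came from both subunits and from members with and without a bacterial counterpart. In untreated eyes 16 of 30 large-subunit genes with bacterial counterparts and 14 of 21 large-subunit genes listed as specific to mitochondria were called lower, against 11.6% of all tested genes (medians -1.14 and -1.13 on the log2 scale). The second of these lists includes Mrps18a, although that protein has a bacterial homologue. In the small subunit it was 10 of 17 with bacterial counterparts (median -1.09) and 3 of 9 specific to mitochondria (median -0.55). In the last class Mrps33, Mrps31 and Mrps22 were called, and the other 6 genes, Mrps23, Mrps25, Mrps26, Mrps27, Mrps34 and Mrps35, did not pass the adjusted p. In pressure-treated eyes the counts in the same order of classes were 17, 13, 9 and 3, against 11.6% of all tested genes. Differences between classes were not tested. With the trend in transcript length removed the counts in untreated eyes, in the same order, were 6, 5, 1 and 2 (against 9.02% of all tested genes), with medians of -0.69, -0.65, -0.32 and -0.46. Mrps36, outside both subunits, was lower too, from 8.55 and 17.9 to 4.08 and 3.46 FPKM (-1.60 ± 0.31 (SE), adjusted p = 0.00768).

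How many members were called depended on single libraries. Without 3mo control replicate 2, 21 were called lower (against 5.67% of all tested genes in that fit), and without 3mo control replicate 1, 51 (15.2%). Without 18mo control replicate 1 the count was 18 (5.75% of all tested genes) and without replicate 2 it was 11 (4.12%). The median of the members stayed below that of all tested genes in each of these fits, with log2 differences from -1.69 to -0.72.

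Pressure-treated eyes gave the age comparison a second time with no library in common in the group means, although the eyes may come from the same animals. Both comparisons used 1 estimate of the spread per gene from all 8 libraries, so their calls are not independent. In 18mo IOP eyes 43 members were called lower than in 3mo IOP eyes and 0 higher, against 11.6% lower and 10.2% higher of all tested genes. The median log2 fold change was -1.08 over the members and 0.093 over all tested genes. Both old libraries lay below both young ones for 73 members, against 34.5% of all tested genes. Called lower in both comparisons were 41 of the 78 members, against 9.67% of all tested genes. The 41 were 93.2% of the members called in untreated and 95.3% of those called in treated eyes. Over all tested genes most calls were shared too, with 11.6% called lower in each comparison and 9.67% in both. Mrpl40, Mrps18b and Mrps6 were called in untreated eyes alone, and Mrpl15 and Mrps10 in treated eyes alone. The first 3 had adjusted p of 0.053, 0.0555 and 0.0528 in treated eyes, and the last 2 had log2 fold changes of -0.96 and -0.85 in untreated eyes. None of the 5 passed the interaction of IOP with age, which tests the difference between these comparisons. For 65 members the old libraries were below the young ones in both kinds of eye, which holds for 28.9% of all tested genes.

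Mrpl20 was again lowest, with 127 and 109 FPKM in 3mo IOP and 22.8 and 25.7 in 18mo IOP eyes (-2.25 ± 0.46 (SE), adjusted p = 0.00971). Mrps36 followed, with 18.2 and 16.1 against 3.23 and 3.85 FPKM (-2.13 ± 0.31 (SE), adjusted p = 0.00446), and Mrps33 with 35.9 and 31.7 against 8.61 and 7.92 (-1.97 ± 0.40 (SE), adjusted p = 0.00965). In these 3 genes the young replicates lay closer together than the untreated young ones did. Mrpl30 (-1.94) and Mrps18c (-1.92) completed the 5 lowest. The 5 highest were Mrpl38 (-0.054), Mrpl4 (-0.086), Mrps34 (-0.12), Mrpl9 (-0.19) and Mrps2 (-0.26), none of which passed the adjusted p. Leaving out 3mo IOP replicate 1 left 5 members called lower (1.94% of all tested genes) and leaving out replicate 2 left 6 (2.34%). Without 18mo IOP replicate 1 the count was 23 (10.5%), and without replicate 2 it was 29 (8.32%).

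**Figure D2:**
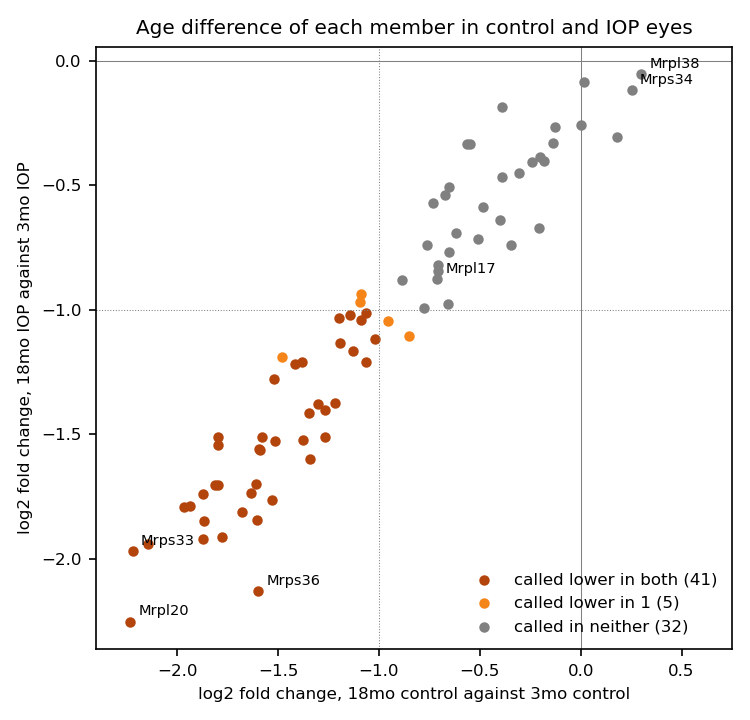
Log2 fold change on the log2(FPKM + 0.5) scale of each of the 78 members between ages, in control eyes (horizontal axis) and in IOP eyes (vertical axis), coloured by whether it was called lower in both comparisons, in 1 or in neither. Dotted lines mark a log2 fold change of -1. The 41 members called in both lie in the lower left, from Mrpl20 at -2.23 and -2.25 upwards.

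The promoters of the members were searched for short stretches that nuclear regulators of mitochondrial genes are known to bind. NRF1 (nuclear respiratory factor) and the ETS factor GABP act on many respiratory chain and mitochondrial translation genes, and YY1 and SP1 act on a broad range of promoters. RefSeq promoter sequences (GRCm38.p6, the assembly behind mm10, 250 bases before to 50 after the start) matched 69 of the 78 members by symbol, with 75 promoters. Both strands were searched for the NRF1 core GCATGCG, the ETS core CCGGAAG, the YY1 core AAGATGG and the SP1 core GGGCGG. The ETS core was in 34.7% of the members' promoters and in 8.86% of all 32851 promoters of that length. The NRF1 core was in 10.7% against 3.58%, the YY1 core in 17.3% against 6.34%, and the SP1 core in 52.0% against 35.7%. The first letters of the NRF1 core read the same on both strands, so a longer stretch can hold it on both at once and was counted as 1 promoter.

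Members with and without a core had medians close to each other between ages. Of the 26 members with the ETS core 17 were called lower in 18mo control eyes (median log2 fold change -1.14), and of the 43 without it 24 (median -1.13), against 11.6% of all tested genes. For the NRF1 core the medians were -1.12 in 8 members with it and -1.13 in 61 without. For the YY1 core they were -1.13 and -1.12, and for the SP1 core -1.11 and -1.14. The promoters below are those of the called members with the lowest log2 fold change that hold each core, with all 4 cores in capitals: Mrpl33 (chr5:31613701-31614000, plus strand) for NRF1, Mrps33 (chr6:39810887-39811186, minus strand) for ETS and SP1, and Mrpl52 (chr14:54426659-54426958, plus strand) for YY1.
Mrpl33: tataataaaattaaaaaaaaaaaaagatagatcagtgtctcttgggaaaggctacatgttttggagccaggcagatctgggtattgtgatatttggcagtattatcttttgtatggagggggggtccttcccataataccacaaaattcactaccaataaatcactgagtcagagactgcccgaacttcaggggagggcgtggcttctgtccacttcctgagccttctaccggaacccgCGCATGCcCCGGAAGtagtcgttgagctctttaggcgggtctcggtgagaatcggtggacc
Mrps33: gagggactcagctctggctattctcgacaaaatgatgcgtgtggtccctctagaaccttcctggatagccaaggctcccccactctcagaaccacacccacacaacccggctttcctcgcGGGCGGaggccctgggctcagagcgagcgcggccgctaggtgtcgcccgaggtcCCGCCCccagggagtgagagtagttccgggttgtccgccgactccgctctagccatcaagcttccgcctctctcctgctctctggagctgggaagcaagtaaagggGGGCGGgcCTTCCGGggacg
Mrpl52: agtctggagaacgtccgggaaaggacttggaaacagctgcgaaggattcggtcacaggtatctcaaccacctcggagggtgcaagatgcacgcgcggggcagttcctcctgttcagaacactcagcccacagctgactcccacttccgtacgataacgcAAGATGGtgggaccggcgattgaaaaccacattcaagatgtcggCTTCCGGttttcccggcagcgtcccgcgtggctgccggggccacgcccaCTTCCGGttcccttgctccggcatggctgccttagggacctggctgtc

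In the Mrpl33 promoter the NRF1 core, read on the reverse strand, is followed, after 1 base, by a forward ETS core that spans the annotated start. The Mrps33 promoter holds 3 SP1 cores, the last of them past the start and followed by a reverse ETS core. In the Mrpl52 promoter a YY1 core is followed by reverse ETS cores on either side of the start. These matches describe the letters of the windows and were not tested for binding.

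Transcript length moved with the age difference, in the members as in other genes. Among members with listed transcripts under 750 bases the median log2 fold change in untreated eyes was -1.56 (16 of 18 called lower), and among 465 other protein-coding genes of that length it was -1.37 (61.7% called lower). From 750 to 1000 bases the medians were -1.40 and -0.98, and from 1000 to 1500 bases -0.65 and -0.41. Up to that length members and other genes lay nearer to each other than among longer transcripts. From 1500 to 2500 bases the 16 members had a median of -1.01 and 3006 other genes 0.042, with 8 members and 10.9% of the others called lower. At 2500 bases and over, the 7 members had -0.66 against 0.41 for 7499 others. In pressure-treated eyes the medians of these last 2 classes were -1.03 against -0.076 and -0.88 against 0.36.

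**Figure D3:**
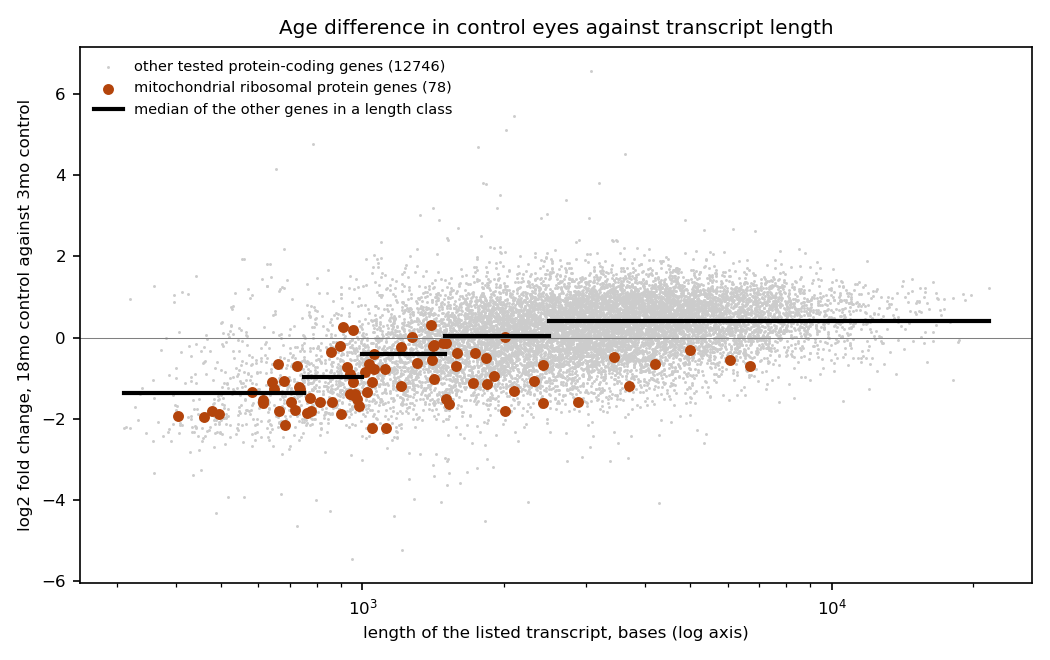
Log2 fold change between 18mo control and 3mo control eyes against the length of the listed transcript (log axis, bases), for the 78 members (orange) and the other tested protein-coding genes (grey), with the median of the other genes in 5 length classes as black lines. The grey medians climb from -1.37 in the shortest class to 0.41 in the longest, while the members above 1500 bases lie mostly below them.

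Several long members were among those called. Mrpl11 (listed transcript 2875 bases) had 18.5 and 41.7 FPKM in 3mo control eyes and 8.97 and 8.99 in 18mo control eyes (-1.58 ± 0.33 (SE), adjusted p = 0.00923). Mrps14, of 2010 bases, had 16.5 and 46.3 against 7.48 and 7.75 (-1.80 ± 0.39 (SE), adjusted p = 0.0105). Mrpl35, of 3689 bases and low level, had 4.35 and 6.07 against 2.05 and 1.88 (-1.20 ± 0.20 (SE), adjusted p = 0.00592). These were picked after their values were seen. The 3 longest, Mrpl17, Mrps25 and Mrpl19, had log2 fold changes of -0.71, -0.55 and -0.30, and none of the 3 was called. Mrpl11, Mrps14 and Mrpl35 have long transcripts around short coding sequences of 576, 384 and 564 bases.

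Across the 78 members, Spearman's rho between the log2 fold change in untreated eyes and length was 0.44 for the listed transcript and 0.62 for the coding sequence. Of the 6 properties looked at, the others gave 0.44 (length of the principal transcript), 0.27 (shortest coding transcript), 0.39 (number of exons) and -0.47 (mean level). In pressure-treated eyes the listed and coding lengths gave 0.45 and 0.61, and over all 12824 tested protein-coding genes in untreated eyes 0.42 and 0.46. Genes in 1 set of libraries are not independent, so these are descriptions.

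With each library's trend in listed length removed, 14 members were called lower and 1 higher in untreated eyes, against 9.02% lower and 7.34% higher of all tested genes. In treated eyes 13 were called lower and 0 higher, against 7.42% and 7.46%. At the adjusted p alone, 40 members were lower and 6 higher in untreated eyes, and 41 and 3 in treated eyes. Of all tested genes 22.5% were lower and 22.5% higher by that measure in untreated eyes, and 20.3% and 19.6% in treated eyes. The median of the members was -0.64 in untreated and -0.57 in treated eyes, while the median of all tested genes moved from 0.16 to 0.038 and from 0.093 to 0.019. The members' median thus moved towards 0 with the removal, and 62 of the 78 lay below 0 after it in untreated eyes. Without 3mo control replicate 2 the count called lower there was 8 (4.53% of all tested genes), and without replicate 1 it was 30 (12.2%). Removal of the trend in coding length, added after the data were seen, gave 19 members called lower in untreated and 16 in treated eyes, with 0 and 0 higher. Of the 12711 tested genes with a coding length, the shares called were then 8.8% lower and 7.03% higher in untreated and 7.51% and 7.14% in treated eyes.

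Called lower in both kinds of eye after removal of the length trend were 10 members, against 5.96% of all tested genes: Mrpl11, Mrpl17, Mrpl20, Mrpl35, Mrpl41, Mrpl50, Mrpl57, Mrps14, Mrps31 and Mrps33. Mrps14 was lowest in untreated eyes, at a log2 fold change of -1.85 (adjusted p = 0.00559), next to Mrpl11 at -1.79 and Mrpl41 at -1.79. Mrpl20 and Mrps33, the lowest before, remained called at -1.62 and -1.54. Mrpl17 entered only through the removal, from -0.71 to -1.20, and with the coding length trend removed instead it was at -0.15 with an adjusted p of 0.452. Mrps34 was the member called higher in untreated eyes, at 1.04 (adjusted p = 0.00424). In treated eyes it was at 0.73 (adjusted p = 0.0166). The 5 further members above 0 at the adjusted p in untreated eyes were Mrps26 (0.93), Mrpl38 (0.69), Mrpl2 (0.58), Mrpl4 (0.51) and Mrps18a (0.47). On this scale 1 member thus was called higher in untreated eyes, against 7.34% of all tested genes. In treated eyes, and with the coding length trend removed instead, 0 members were called higher.

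**Figure D4:**
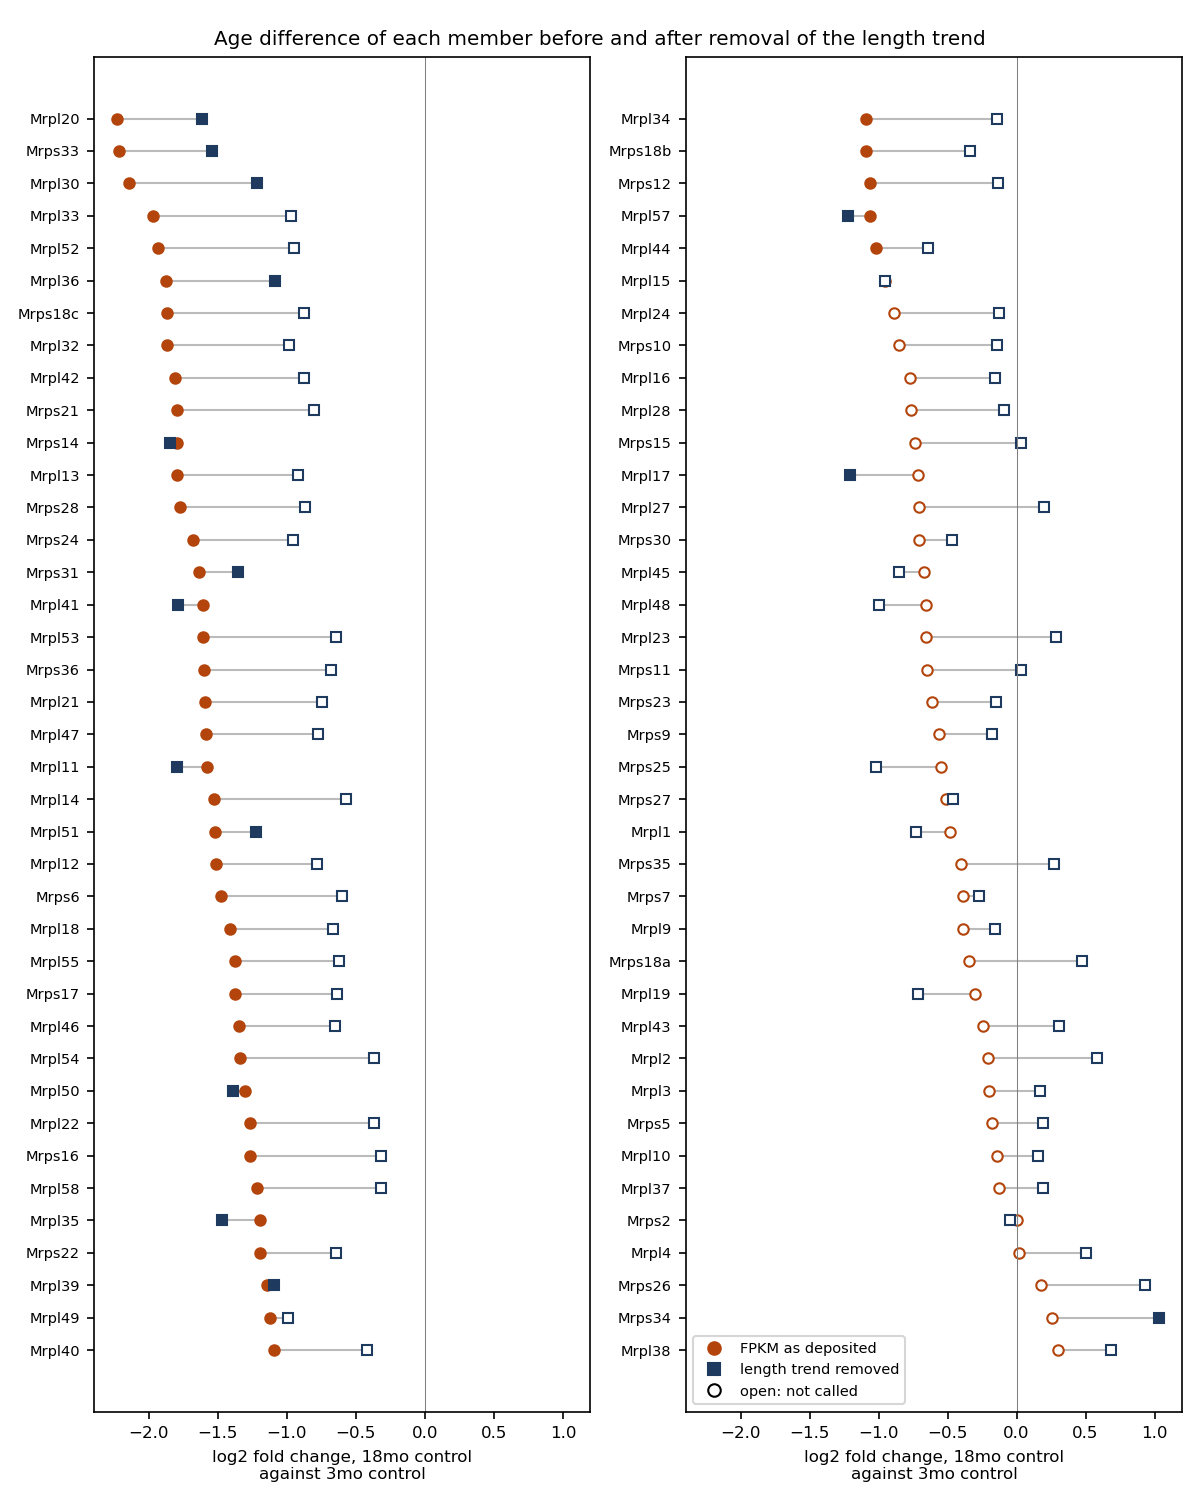
Log2 fold change of each of the 78 members between 18mo control and 3mo control eyes, from FPKM as deposited (orange circles) and with each library's trend in transcript length removed (blue squares); filled symbols were called and open ones were not. Most short members, such as Mrpl33 and Mrpl52, move towards 0, to -0.97 and -0.95, while Mrps14, Mrpl11 and Mrpl41 end lowest and Mrps34 moves to 1.04.

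Ribosomal proteins of the cytosol and subunits of respiratory complex I, part of which is made by mitochondrial ribosomes, were set beside the members. In untreated eyes 67 of 79 tested cytosolic ribosomal protein genes and 30 of 36 complex I genes were called lower, with 0 higher in either group, against 11.6% lower of all tested genes. Their median log2 fold changes were -1.84 and -1.88, and those of their transcript lengths 715 and 692.5 bases. In treated eyes 63 and 31 were called lower, against 11.6%. With the length trend removed 43 and 19 were called lower in untreated eyes, against 9.02% (medians -1.04 and -1.02). The mitochondrial ribosomal protein genes thus had the smallest share of calls of the 3 groups before and after the removal, and whether the groups differed was not tested.

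Of the other genes of mitochondrial translation a smaller share was called before removal of the length trend, and whether they differ from the members was not tested. Over all tested genes 11.6% were called lower in untreated eyes, and the counts for translation factors, assembly genes and the transcription list lay near that share. Of 5 mitochondrial ribosome proteins with other symbols 2 were called lower in untreated eyes: Chchd1 (127 ± 78 against 25.2 ± 1.72 FPKM (SD, n = 2), log2 fold change -2.16 ± 0.37 (SE), adjusted p = 0.00623, 3mo control first) and Aurkaip1 (-1.82, adjusted p = 0.00658), both of the small subunit. Ptcd3 (-0.43, adjusted p = 0.0481) and Dap3, the GTP-binding protein of the small subunit (-0.088, adjusted p = 0.713), were the highest. Of 12 translation factors 1 was called lower, the ribosome recycling factor Mrrf (-1.36, adjusted p = 0.00586), followed by the initiation factor Mtif3 (-0.94, adjusted p = 0.00955), and the highest were Mtfmt (0.37, adjusted p = 0.134) and Guf1 (0.30, adjusted p = 0.177). Of 25 assembly genes 3 were called lower, led by the ribosomal RNA methyltransferase Tfb1m (-1.46, adjusted p = 0.00562) and Malsu1 (-1.44, adjusted p = 0.0128). The highest were Dhx30 (0.66, adjusted p = 0.0327) and Noa1 (0.64, adjusted p = 0.0235).

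None of the 17 mitochondrial aminoacyl-tRNA synthetases, which charge mitochondrial tRNAs, was called. Rars2 (-0.67, adjusted p = 0.0277) and Yars2 (-0.64, adjusted p = 0.0507) were lowest and Vars2 (0.95, adjusted p = 0.0188) and Sars2 (0.93, adjusted p = 0.00787) highest, and 2 passed the adjusted p in the lower and 5 in the higher direction, against 19.2% and 26.7% of all tested genes. Of 9 genes of mitochondrial transcription and RNA maintenance only Slirp, which stabilises mitochondrial mRNAs, was called lower (109 ± 57 against 27 ± 2.45 FPKM (SD, n = 2), log2 fold change -1.90 ± 0.33 (SE), adjusted p = 0.00623, 3mo control first). Mterf1a (-0.84, adjusted p = 0.0169) followed, and the highest were the polymerases Polg (0.96, adjusted p = 0.0116) and Polrmt (0.88, adjusted p = 0.014). In treated eyes the counts called lower in these 5 lists, in the same order, were 2, 2, 3, 0 and 1, and 1 gene was called higher, against 11.6% lower and 10.2% higher of all tested genes. Their median transcripts were longer than those of the members, 3118 bases for the synthetases and 3483 for the transcription list. With the length trend removed the medians in untreated eyes were -0.63, -0.12, -0.27, -0.11 and -0.065. The counts called lower were then 2, 2, 3, 0 and 0, against 9.02% of all tested genes.

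Cell type markers moved between the same libraries, and their counts of calls stand beside the 11.6% lower and 11.6% higher of all tested genes in untreated eyes. The summed level of the 4 ganglion cell markers was 220.0 and 522 FPKM in 3mo control and 26 and 56.8 in 18mo control eyes (3 of 4 called lower). In treated eyes it was 355 and 389 FPKM in young and 67.6 and 24.6 in old mice (4 of 4 called lower, against 11.6% of all tested genes). Markers of the pigment epithelium, a tissue next to the retina, summed to 130.2 and 156 FPKM in 3mo control and 5.85 and 1.91 in 18mo control eyes, and 3 of 3 were called lower. Neither list overlapped between ages. Higher in old untreated eyes were the sums of the markers of bipolar cells (62.1 and 42.3 against 151 and 198 FPKM, 3 of 3 called higher), microglia (6.86 and 9.35 against 31.6 and 36.3, 3 of 3) and endothelium (2.21 and 1.54 against 18.4 and 19.3, 3 of 3). Those of Muller glia (400.4 and 501 against 1079 and 829, 1 of 3 called higher) and cones (433 and 495 against 628 and 834, 1 of 3) were higher as well, without overlap. In treated eyes the cone sums overlapped, at 391 and 404 FPKM in young and 540.4 and 281 in old mice, with 0 of 3 called.

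Rod markers, which make up most of the marker signal, summed to 15522 and 14814 FPKM in 3mo control and 14282 and 12589 in 18mo control eyes, with 0 of 4 called. In treated eyes they stood at 14520 and 13395 FPKM in young and 8714 and 9721 in old mice, with 4 of 4 lower without overlap and 1 of 4, Nrl, called lower. Of all tested genes 34.5% were lower without overlap and 11.6% called lower in that comparison. Blood markers overlapped (12.9 and 197 against 115 and 307 FPKM, 1 of 3 called higher), and lens markers were at 14.1 and 9.02 against 2.34 and 3.69 FPKM, 0 of 3 called. The part of these differences in the age difference of the members was not tested.

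Pressure was compared within each age and table to ask whether a mild elevation alters the retina, and whether age or repetition changes that. In 3mo IOP against 3mo control eyes 0 of 78 members were called in either direction, against 0.00728% lower and 0.568% higher of all tested genes, and 3 members were higher and 0 lower at an unadjusted p under 0.05 (limma), against 8.28% higher and 0.233% lower of all tested genes. In voom fits to the recovered reads 0 members were called higher, against 0.0218% of all tested genes. The median log2 fold change was 0.22 over the members and 0.13 over all tested genes. Both treated libraries were above both untreated ones for 6 members, against 28.6% of all tested genes. Without 3mo control replicate 2, 6 members were called higher, against 1.84% of all tested genes. The members' median less that of all tested genes was 0.60 without that library and -0.41 without 3mo control replicate 1, so its direction rested on 1 library.

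In 18mo IOP against 18mo control eyes again 0 members were called, against 0.00728% lower and 0.117% higher of all tested genes. At an unadjusted p under 0.05 (limma) 1 member was higher and 0 were lower, against 8.71% and 0.736% of all tested genes. Since voom called 0 members and 0% of all tested genes, it says nothing particular to the members. Here 48 members were higher in both treated than in both untreated libraries, against 36.5% of all tested genes, but the differences were small, with a median of 0.17 against 0.089 for all tested genes. Marker sums moved between the same libraries: rods stood at 14282 and 12589 FPKM in 18mo control and 8714 and 9721 in 18mo IOP eyes (4 of 4 lower without overlap), and cones at 628 and 834 against 540.4 and 281 (3 of 3). Blood markers were at 115 and 307 against 39.2 and 31.5 FPKM (3 of 3), and lens markers at 2.34 and 3.69 against 4.78 and 17.3 (3 of 3 higher without overlap). Of all 13731 tested genes 1358 were lower without overlap, and 36.5% were higher without overlap. None of these markers was called, and their part in the members' values was not tested. With the length trend removed the members' median was -0.038 and that of all tested genes -0.042. Mrps6, which shares its locus and strand with Slc5a3 so that their reads may not be fully separable, had 12.3 and 12.7 FPKM in 18mo control and 21.9 and 25.1 in 18mo IOP eyes (0.88 ± 0.42 (SE), adjusted p = 0.618). Mrpl52 (0.62), Mrpl33 (0.55) and Mrps33 (0.54) were next, and the lowest were Mrpl48 (-0.11), Mrpl38 (-0.10), Mrps36 (-0.081), Mrpl49 (-0.061) and Mrps31 (-0.052).

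After 4 elevations the members likewise gave 0 calls, whereas 0.693% of all tested genes were called lower and 5.45% higher. The median was 0.19 over the members and 0.10 over all tested genes, and 10 members were higher without overlap, against 27.7% of all tested genes. By the adjusted p alone 1 member was higher, Mrps25, against 6.85% of all tested genes, and voom called 0 members higher, against 4.74%. At an unadjusted p under 0.05 2 members were higher and 0 lower, against 12.0% and 3.4% of all tested genes. Without 4xIOP replicate 1, 2 members were called higher, against 5.2% of all tested genes, and the members' median less that of all tested genes ran from -0.065 to 0.25 over the fits without 1 library. Replicate 2 held the higher values of most members, among them Mrps27 and Mrpl33. Mrps27 had 4.62 and 4.72 FPKM in 4xIOP control and 5.83 and 9.21 in 4xIOP eyes (0.60 ± 0.23 (SE), adjusted p = 0.187), and Mrpl33 had 24.9 and 21.3 FPKM against 23.4 and 50.8 (0.57 ± 0.34 (SE), adjusted p = 0.523). Mrps28 (0.49) and Mrpl12 (0.46) were also among the 5 highest, and the lowest were Mrpl49 (-0.27), Mrpl9 (-0.10), Mrps2 (-0.10), Mrpl19 (-0.023) and Mrps36 (-0.02).

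Mrps25, a small-subunit protein specific to mitochondria (NM_025578, chr6:92169523-92184023, mm10; listed transcript 6059 bases, coding sequence 513), had the highest log2 fold change of the 78 members in all 3 pressure comparisons. Its FPKM was 4.05 and 6.37 in 3mo control and 11.8 and 8.97 in 3mo IOP eyes (0.95 ± 0.33 (SE), adjusted p = 0.401). In old mice it was 3.39 and 3.25 in control and 5.64 and 11.5 in IOP eyes (1.17 ± 0.33 (SE), adjusted p = 0.227). In the repeat table it was 4.46 and 4.09 in control and 7.55 and 9.34 in 4xIOP eyes (0.90 ± 0.21 (SE), adjusted p = 0.0142). In each comparison both treated libraries lay above both untreated ones. Only the repeat comparison passed the adjusted p, and there the difference was under 1 on the log2 scale. With the length trend removed the log2 fold changes were 0.90, 1.10 and 0.81, with adjusted p of 0.769, 0.378 and 0.0189. Microglia markers moved with pressure too, from a sum of 6.86 and 9.35 FPKM in 3mo control to 24.7 and 19.4 in 3mo IOP eyes, from 31.6 and 36.3 to 96.6 and 50.2 in old mice, and from 4.5 and 5.1 to 51.1 and 46.3 after 4 elevations, where 3 of 3 were called higher. Also called higher there were 4 of 4 lens markers (3.94 and 0.356 against 44.2 and 93.3 FPKM), and 2 of 3 cone and 2 of 2 pigment epithelium markers were called lower. Of all tested genes 5.45% were called higher and 0.693% lower after 4 elevations. Rod markers summed there to 7204 and 7976 FPKM in control and 2768 and 3991 in treated eyes. The part of these cells in the difference of Mrps25 was not tested.

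**Figure D5:**
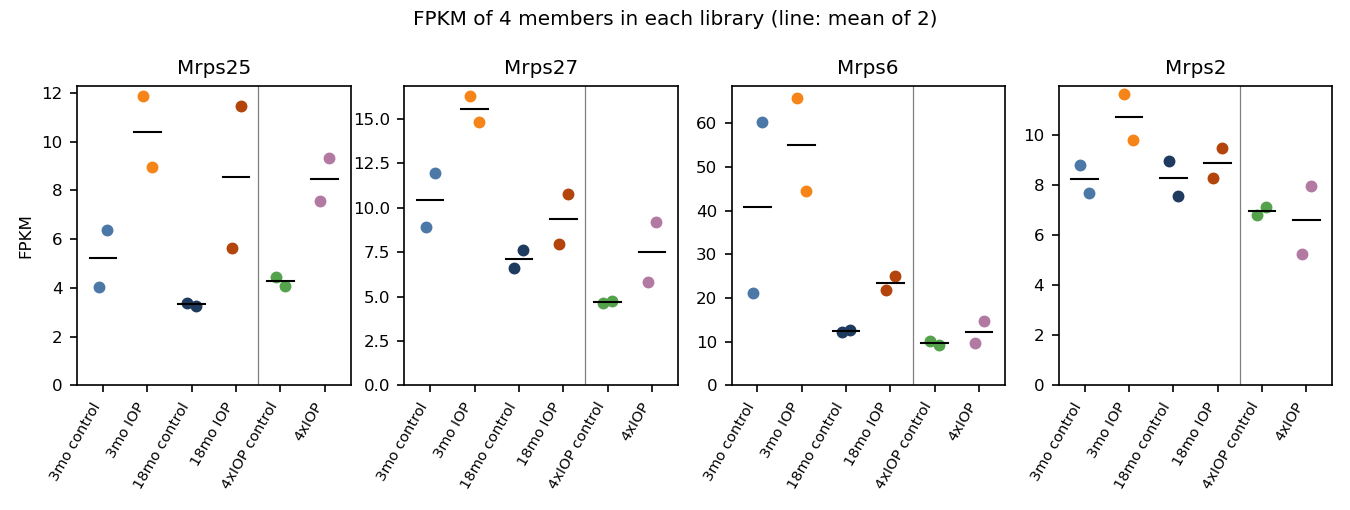
FPKM of Mrps25, Mrps27, Mrps6 and Mrps2 in each library by group (points; the black line is the mean of 2 libraries), with the repeat table right of the grey line. Mrps25 is higher in both treated libraries than in both untreated ones in all 3 pairs of groups, while Mrps2, at 6.8 and 7.12 FPKM in 4xIOP control and 5.24 and 7.96 in 4xIOP eyes, is not.

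In young mice Mrps6 (0.59), Mrps18a (0.59), Mrps27 (0.56) and Mrps24 (0.56) followed Mrps25, and Mrpl23 (-0.065), Mrps22 (-0.027), Mrpl49 (-0.023), Mrpl35 (0.00039) and Mrpl47 (0.021) were lowest. Mrps27 had 8.91 and 12 FPKM in 3mo control and 16.3 and 14.8 in 3mo IOP eyes, without overlap, adjusted p = 0.467. Mrpl12 had 24.8 and 74.6 FPKM in 3mo control and 66.1 and 50 in 3mo IOP eyes, so that the treated values fell between the 2 untreated ones. The median member was ordered likewise, with 3mo control replicate 1 lowest of the 4 young libraries and replicate 2 highest.

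The response to pressure was not shown to differ with age. In the interaction of IOP with age 0 members and 0.0% of all tested genes passed the adjusted p, by limma as by voom. At an unadjusted p under 0.05 (limma) there were 0 members, against 1.59% of all tested genes. The members' interaction values, the log2 response at 18 months less that at 3 months, ran from -0.53 (Mrps36) to 0.29 (Mrps6) around a median of -0.077. Next to Mrps36 stood Mrps26 (-0.49), Mrpl2 (-0.46), Mrps18a (-0.39) and Mrps34 (-0.37), and next to Mrps6 stood Mrps21 (0.29), Mrps33 (0.25), Mrpl13 (0.25) and Mrpl51 (0.24). Among these 10 the standard errors ran from 0.24 (Mrps26) to 0.60 (Mrps6).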

How the data were processed

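Bulk retina polyA RNA of 12 libraries was sequenced, 2 in each of 6 groups taken from the labels. The authors aligned reads to mm10 with STAR (2.7.8a in the submitters' processing notes). They used HOMER to count the unique exonic tags of each gene's own strand, kept 1 isoform per locus, and deposited FPKM values in 2 tables. The values are thus relative to the tags of each library and to the length of the listed isoform. No unmatched column of values was present.

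The tags of each library were recovered from the steps of the FPKM values, with 100% of at least 9215 low values per library lying within 0.2 of a whole number, and 3 tags on a transcript of 1000 bases correspond to at most 0.0754 FPKM. Groups were compared within each table with limma 3.58.1 (lmFit, eBayes with trend, R 4.3.3) on log2(FPKM + 0.5), which understates the change of low genes. Tested were genes whose mean reached 0.5 FPKM. All groups of a table shared 1 estimate of the spread, and p-values were two-sided and adjusted over all tested genes (Benjamini-Hochberg). A call needed an adjusted p no larger than 0.05 together with a difference of 1 or more on the log2 scale, or for the interaction the adjusted p alone. The length trend was removed by subtracting from each library a natural spline of log2 level on length (5 degrees of freedom). Coding lengths came from GENCODE M21 (GRCm38), using the principal transcript, and promoters from RefSeq (GRCm38.p6). The scripts were tested on simulated data first.

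The members and gene lists were chosen with earlier results of these data known. Named were the 5 lowest and 5 highest members of each comparison, members called against the median, the 3 shortest, longest, highest and lowest, members of known role, and the 2 lowest and 2 highest genes of each further list in untreated eyes. Genes named beyond this overlap another gene, complete a class, are called in only 1 age comparison, or are described as picked afterwards. Others pass the adjusted p or change sign after removal of the length trend. Alternatives were other pseudocounts, filters and scalings, voom on the recovered tags, only the compared groups in the fit, no trend, the adjusted p alone, the replicate number as a block, removal of the length trend, and leaving out each library, when the library left in its group is assumed to vary like the others. Removal of the coding length trend and the crossed pairing were added after seeing the data. Several normalisations and leave-outs were looked at before the full set was computed.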

Additional observations from a re-analysis of the deposited data

How the results depend on the processing

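Other pseudocounts, filters, scalings, voom and the removal of length trends left the members' median below that of all tested genes in both age comparisons, with differences from -1.33 to -0.68 in untreated and from -1.26 to -0.57 in treated eyes on the log2 scale (as reported, -1.25 and -1.17). In treated eyes this difference was -1.25 with a pseudocount of 0.1, -1.08 with no filter and -1.26 with voom. With the length trend removed 14 members were called lower and 1 higher in untreated and 13 lower in treated eyes. Of all tested genes 9.02%, 7.34% and 7.42% were called so. The differences of medians were -0.68 and -0.59, while in 18mo IOP against 18mo control it was 0.0039 (as reported, 0.083). In 3mo IOP against 3mo control it turned from 0.085 to -0.0086, and after 4 elevations from 0.095 to -0.04. With the coding length trend removed 19 and 16 members were called lower between ages, against 8.8% and 7.51% of the tested genes with a coding length. The differences of medians were then -0.68 and -0.57, and -0.0086 in 18mo IOP against 18mo control. By the adjusted p alone 1 member was higher after 4 elevations, against 6.85% of all tested genes. The cause of these shifts was not tested.

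Leaving out 1 library gave 11 to 51 members called lower in untreated and 5 to 29 in treated eyes, 0 to 6 called higher in 3mo IOP against 3mo control and 0 to 2 after 4 elevations. The differences of medians ran from -1.28 to -1.06 in the age comparison of treated eyes and from -0.011 to 0.14 in 18mo IOP against 18mo control. Without 3mo control replicate 1 and with the length trend removed 30 members were called lower and 2 higher between untreated ages, and without replicate 2 8 and 1, with differences of medians from -0.83 to -0.36.

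Single members were followed where they passed the adjusted p between ages, together with Mrps25. Over 113 pairs of a gene and a comparison, 1638 alternative values kept direction and side of the threshold, 378 no longer passed the adjusted p, 1 newly passed it and 16 changed sign. With the length trend removed those that changed sign were Mrpl27 (0.20 in untreated and 0.13 in treated eyes), Mrps15 (0.034 and 0.27) and Mrps11 (0.035 in untreated eyes). In untreated eyes without 3mo control replicate 1 as well they were Mrpl27 (0.34), Mrps11 (0.034) and Mrps15 (0.17), and without replicate 2 Mrpl27 (0.056) and Mrps11 (0.036). Over all 78 members the removal of the length trend alone turned 12 from lower to higher and 1 from higher to lower in untreated eyes, and 18 and 0 in treated eyes. In the pressure comparisons 47 (3mo), 37 (18mo) and 48 (4xIOP) turned from higher to lower, all of them short of the adjusted p on either scale. Mrps25 changed sign between ages with the coding length trend removed (0.032 in untreated and 0.29 in treated eyes) and without 18mo IOP replicate 1 (0.15 in treated eyes, against -0.82 without replicate 2). Its interaction changed sign without 3mo control replicate 2 (-0.084, and -0.33 with the length trend removed) and without 18mo IOP replicate 2 (-0.27, against 0.70 without replicate 1).

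With the replicate number as a block 44 members were called lower in untreated and 43 in treated eyes, against 11.3% of all tested genes in either. The pairing changed no other count. Deviations of equal numbers correlated negatively (-0.28, -0.53 and -0.29 in the 3 pressure comparisons). With the numbers crossed 44 and 44 members were called lower, against 11.8% and 11.7% of all tested genes. Having 2 libraries a group limits all of these counts.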
